A study of Mus musculus with 4 samples.

Results

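Semaphorins are secreted or membrane-bound guidance ligands, and neuropilins and plexins are their receptors. A set of 10 of these genes was described across 3 mouse cell lines, out of 33565 genes listed in each count matrix. The genes were taken by symbol: the semaphorins Sema3a, Sema3c, Sema3d, Sema3e, Sema5a and Sema7a, the neuropilins Nrp1 and Nrp2, and the class A plexins Plxna2 and Plxna4. They had been picked with their levels in these lines known, with Sema5a marked as restricted to NIH/3T3, so every level and ratio below is a description without a test.

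RNA was counted in single cells of a CapSeq experiment, a split-pool method in which the BC1 segment of the cell barcode records the plate well, and therefore the line, of each cell. N2a (Neuro-2a) cells derive from a mouse neuroblastoma, a tumor of the sympathetic lineage, NIH/3T3 cells are immortalized fibroblasts from mouse embryos, and the embryonic stem cells (mESCs) were E14TG2a cells. N2a and NIH/3T3 cells grew in DMEM with fetal bovine serum, whereas the mESCs grew on gelatin with serum, leukemia inhibitory factor, the GSK3 inhibitor CHIR99021 and the MEK inhibitor PD0325901. Line and medium therefore cannot be told apart for the mESCs. Cells were mixed with dextran and encapsulated with gelatin methacryloyl on a microfluidic device before the CapSeq steps. The sources used here name no further treatment of the cultures and no genetic change made for the study.

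Class 3 semaphorins are secreted ligands that bind a neuropilin, which holds the ligand, and a class A plexin, which carries the signal across the membrane. Plexins act inside the cell on small GTPases and the cytoskeleton, and the system is best known for turning axons away and for guiding blood vessels and neural crest cells. Sema5a is a transmembrane ligand with thrombospondin repeats, and Sema7a is held on the membrane by a lipid anchor and signals through integrins and Plxnc1.

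After filtering by UMI total (1000 or more) and mitochondrial share (20% or less), there were 2323 N2a, 2037 NIH/3T3 and 2137 mESC cells, with medians of 6185, 4863 and 4803 UMIs per cell. Their summed UMIs were 17955221, 11697865 and 12322098, and levels are given as CPM, each gene's UMIs scaled to a common total. The 3 line matrices shared 0 barcodes, which follows from splitting them by BC1 and is no check of the lines. Each line was spread over 32 BC1 sequences, which hold cells of the same culture and are technical parts of 1 sample, not replicates. Of 6 genes listed per line as markers, 5 in NIH/3T3 and all 6 in mESCs had a CPM + 1 at least 4 times that of both other lines. In N2a this held for Hand2 (404 CPM) and Chga (99.02 CPM), whereas Dbh, an enzyme of noradrenaline synthesis, had 0.891 CPM, and Gata3 had 3.84 CPM against 8.44 CPM in mESCs, so not all listed markers of the sympathetic lineage were found at a high level.

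The sequence upstream of the annotated start is shown for the gene of each line that stood furthest above the next line on CPM + 1, Sema5a in NIH/3T3, Plxna4 in N2a and Sema3e in mESCs, and for Nrp2, which was high in 2 lines. Each stretch covers the 250 bases before the start of the canonical transcript in GENCODE M39 on GRCm39, 5′ to 3′ on the gene's own strand, at chr15:32244669-32244918 (+), chr6:32565194-32565443 (-), chr5:14075040-14075289 (+) and chr1:62742194-62742443 (+). Capitals mark the GC box GGGCGG on either strand, with overlapping matches joined.
Sema5a: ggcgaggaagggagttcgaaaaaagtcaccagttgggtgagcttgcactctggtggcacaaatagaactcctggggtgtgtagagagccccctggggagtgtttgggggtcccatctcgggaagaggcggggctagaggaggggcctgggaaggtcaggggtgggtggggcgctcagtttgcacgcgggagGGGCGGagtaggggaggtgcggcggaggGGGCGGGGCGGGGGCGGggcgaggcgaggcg
Plxna4: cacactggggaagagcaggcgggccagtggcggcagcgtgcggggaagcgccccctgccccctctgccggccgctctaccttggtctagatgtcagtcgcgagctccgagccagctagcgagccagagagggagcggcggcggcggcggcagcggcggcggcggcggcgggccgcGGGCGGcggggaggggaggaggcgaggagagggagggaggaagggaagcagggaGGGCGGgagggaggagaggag
Sema3e: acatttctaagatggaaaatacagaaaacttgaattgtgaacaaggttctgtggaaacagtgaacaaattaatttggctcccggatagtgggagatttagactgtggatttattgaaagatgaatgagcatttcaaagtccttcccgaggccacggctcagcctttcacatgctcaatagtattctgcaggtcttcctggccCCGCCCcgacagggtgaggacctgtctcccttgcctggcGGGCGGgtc
Nrp2: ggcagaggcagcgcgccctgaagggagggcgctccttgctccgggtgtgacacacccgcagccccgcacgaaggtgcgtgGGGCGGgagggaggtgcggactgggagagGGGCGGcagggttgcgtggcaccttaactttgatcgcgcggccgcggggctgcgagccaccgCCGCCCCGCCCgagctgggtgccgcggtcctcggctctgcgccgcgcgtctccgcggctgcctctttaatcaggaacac
The Sema5a window held 4 GC boxes and 16 CpG dinucleotides, and the Plxna4 window held 2 GC boxes and 28 CpGs. The Sema3e window had 2 GC boxes and 7 CpGs, and the Nrp2 window 4 and 31. Over the windows of 21303 protein-coding genes, the median was 8 CpGs (quartiles 3 and 16), and 36.5% held a GC box. Among the other 6 genes, Sema7a, Nrp1 and Plxna2 held a GC box, with 15, 11 and 14 CpGs. Sema3c and Sema3d held no GC box but the letters of a CCAAT box (CCAAT on either strand, in 36.5% of all windows), with 8 and 4 CpGs. Both matches were on the strand opposite to the gene, as ATTGG. Sema3a, with 4 CpGs, was the only one of the 10 with the TATA box letters TATAAA on either strand, which 11.9% of all windows held. Its match was on the strand opposite to the gene, as TTTATA. The windows of Sema3a, Nrp1 and Plxna2 lie inside the annotated gene, after the start of longer transcripts, and overlap exons of other transcripts of the same gene. A match describes the letters in the window and not the binding of a factor. The Sema5a gene overlaps Snhg18, a noncoding RNA of the opposite strand.

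Sema5a (ENSMUSG00000022231, GRCm39 chr15:32244919-32696487) was found almost only in NIH/3T3, and it had the highest level of the 10 genes. N2a had 12 of its UMIs, NIH/3T3 10702 and mESCs 26, which were 0.668, 915 and 2.11 CPM. The NIH/3T3 level had a 95% exact Poisson interval of 898 to 932 CPM and was 434 times that of mESCs (exact interval 296 to 664). It ranked 108 among 20351 genes with UMIs in NIH/3T3. Across the 32 BC1 sequences, Sema5a ranged from 721 to 1194 CPM in NIH/3T3 (median 912). It ranged from 0 to 3.38 CPM in N2a and from 0 to 12.3 CPM in mESCs, so NIH/3T3 did not overlap the other lines. At 8.20 on the log2 scale of CPM + 1, its ratio to the next line was the sixth largest of 13000 genes that reached 5 CPM in at least 1 line.

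Sema5a UMIs were found in 1815 of 2037 NIH/3T3 cells (89.1%, exact binomial interval 87.7% to 90.4%) and in 98.0% of the upper quartile of NIH/3T3 cells by UMI total. NIH/3T3 cells with a Sema5a UMI had a median of 5215 UMIs in all, and those without had 2222. A Sema5a UMI was found in 0.517% of N2a cells and 1.17% of mESCs, at medians of 6185 and 4803 UMIs per cell. Where these few UMIs came from was not tested. When every cell was thinned to 1000 UMIs, 54.5% of NIH/3T3 cells, 0 of 2323 N2a cells (which allows up to 0.129%) and 0.234% of mESCs had a Sema5a UMI. Up to 43 Sema5a UMIs were counted in 1 cell, and 840 NIH/3T3 cells had at least 5. The variance of the thinned counts was 1.27 times their mean, where counting error alone gives 1.

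Snhg18, which overlaps Sema5a on the opposite strand, had 0 UMIs in N2a (which allows up to 0.167 CPM), 613 in NIH/3T3 (52.4 CPM) and 4 in mESCs. The strand setting of the counting was not given in the sources used here. Read assignment between the overlapping parts of Sema5a and Snhg18 was not tested.

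Sema3a (ENSMUSG00000028883, chr5:13175288-13653578), the founding class 3 semaphorin and a repellent of axons, was the second ligand of NIH/3T3. It had 16, 1570 and 13 UMIs across N2a, NIH/3T3 and mESCs, or 0.891, 134 and 1.06 CPM. Its NIH/3T3 level was 127 times that of mESCs (interval 74.2 to 239), whereas the levels in mESCs and N2a could not be separated (ratio 1.18, interval 0.524 to 2.63). In NIH/3T3 it ranged from 65.0 to 174 CPM over the BC1 sequences (median 139), and the highest value in another line was 7.73 CPM. It was found in 40.3% of NIH/3T3 cells, or 12.0% after thinning, against 0.646% of N2a cells and 0.562% of mESCs.

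**Figure D1:**
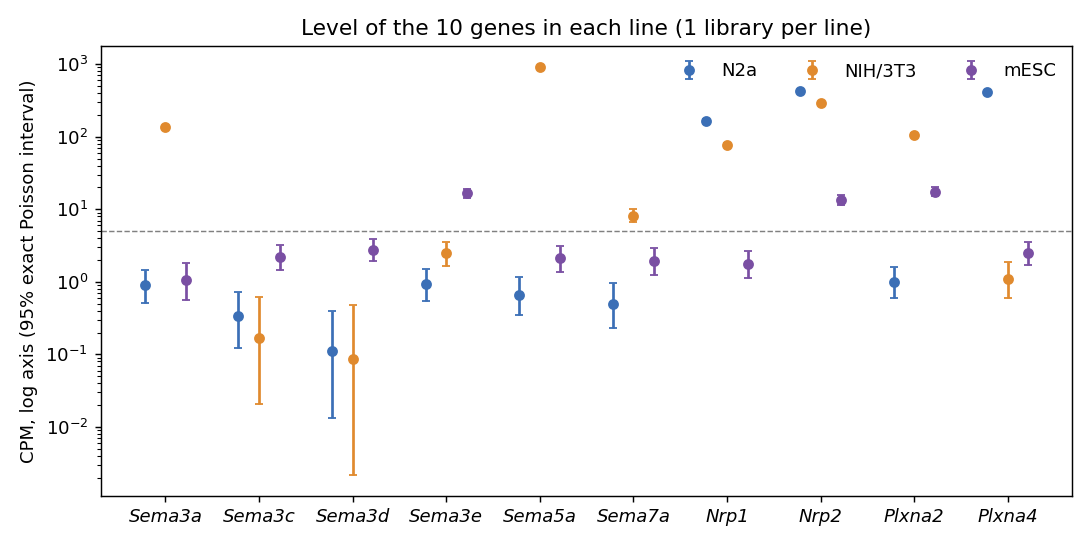
CPM of each of the 10 genes (log axis) in N2a (blue), NIH/3T3 (orange) and mESCs (purple), with 95% exact Poisson intervals that are narrower than the point where none is seen; the dashed line is at 5 CPM. Sema5a and Sema3a stand at 915 and 134 CPM in NIH/3T3 and near 1 CPM elsewhere, Plxna4 stands at 413 CPM in N2a alone, and Nrp1 and Nrp2 are high in N2a and NIH/3T3.

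Sema3e (ENSMUSG00000063531, chr5:14075290-14306719), a class 3 ligand that binds Plxnd1 without a neuropilin, was highest in mESCs but at a low level. It had 17, 29 and 205 UMIs across N2a, NIH/3T3 and mESCs, or 0.947, 2.48 and 16.6 CPM, and the mESC level was 6.71 times that of NIH/3T3 (interval 4.53 to 10.3). The BC1 sequences of mESCs ranged from 0 to 36.6 CPM and overlapped those of NIH/3T3, which reached 10.8 CPM. Only 7.25% of mESCs had a Sema3e UMI, against 1.42% of NIH/3T3 cells and 0.732% of N2a cells, and after thinning its CPM + 1 in mESCs was under 4 times that of NIH/3T3 (15.0 against 3.44 on the plain CPM scale).

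Sema3c (ENSMUSG00000028780, chr5:17779219-17935648) and Sema3d (ENSMUSG00000040254, chr5:12433124-12638929), class 3 ligands known from neural crest and heart development, stayed under 5 CPM in every line. Sema3c had 6, 2 and 27 UMIs across N2a, NIH/3T3 and mESCs, or 0.334, 0.171 and 2.19 CPM. Sema3d had 2, 1 and 34 UMIs, or 0.111, 0.0855 and 2.76 CPM. The mESC level was 6.56 times that of N2a for Sema3c (interval 2.65 to 19.4) and 24.8 times for Sema3d (6.35 to 213), whereas N2a and NIH/3T3 could not be separated for either gene. A UMI was found in 1.08% of mESCs for Sema3c and in 1.50% for Sema3d. The 1.17% of mESCs with a Sema5a UMI was not used as a background for these 2 genes. Where their few UMIs came from was not tested.

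Sema7a (ENSMUSG00000038264, chr9:57847375-57870151) had 9, 96 and 24 UMIs across N2a, NIH/3T3 and mESCs, or 0.501, 8.21 and 1.95 CPM. NIH/3T3 was 4.21 times mESCs (interval 2.67 to 6.89) on the plain CPM scale, but on CPM + 1 the ratio fell short of 4. The BC1 sequences overlapped, from 0 to 20.1 CPM in NIH/3T3 and from 0 to 9.13 CPM in mESCs, and 4.03% of NIH/3T3 cells had a UMI.

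Sema3d, Sema3a, Sema3e and Sema3c lie in this order on the plus strand within 5.50 Mb of chromosome 5. Of 33 genes listed there, 8 reached 5 CPM in a line. Sema3a and Hgf, a growth factor ligand of Met, were at least 4 times higher in NIH/3T3 on CPM + 1, with 15.9 CPM for Hgf there. Sema3e, Pclo, Gm21847 and Speer4cos were so in mESCs, and Cacna2d1 and Gm30613 in no line. Over all 13000 genes that reached 5 CPM, 19.5% were so in a line. Sema3a and Sema3e were chosen on these levels, and the class 3 genes set the ends of the stretch. Nothing is therefore read from the difference. Of the 4 class 3 genes, Sema3d, Sema3e and Sema3c had their highest level in mESCs and Sema3a in NIH/3T3. These neighbors were named for their position after their values were seen.

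Nrp2 (ENSMUSG00000025969, chr1:62742444-62857854), a receptor of class 3 semaphorins and VEGF-C, had the highest level of the neuropilins and plexins in N2a and in NIH/3T3. It had 7755, 3434 and 167 UMIs across N2a, NIH/3T3 and mESCs, or 432, 294 and 13.6 CPM. N2a was 1.47 times NIH/3T3 (interval 1.41 to 1.53), and NIH/3T3 was 21.7 times mESCs (18.5 to 25.5). The BC1 sequences ranged from 266 to 524 CPM in N2a and from 192 to 355 CPM in NIH/3T3, and therefore overlapped, whereas the highest in mESCs was 29.7 CPM. It was found in 78.7% of N2a cells, 69.6% of NIH/3T3 cells and 6.97% of mESCs, or 33.1%, 24.3% and 1.36% after thinning.

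Nrp1 (ENSMUSG00000025810, chr8:129085085-129231082), the neuropilin bound by Sema3a and VEGF-A, had the same order of lines at a lower level. It had 3002, 908 and 22 UMIs across N2a, NIH/3T3 and mESCs, or 167, 77.6 and 1.79 CPM. N2a was 2.15 times NIH/3T3 (interval 2.00 to 2.32), and NIH/3T3 was 43.5 times mESCs (28.5 to 69.7). Over the BC1 sequences, N2a ranged from 108 to 205 CPM and NIH/3T3 from 38.3 to 132 CPM, with overlap. Nrp1 was found in 48.0%, 30.8% and 1.03% of the cells.

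Levels of different genes were also set side by side per kilobase of exon, with the exons of all annotated transcripts joined. UMIs count molecules, and whether they rise with exon length here was not tested. Whether intronic reads were counted was not given in the sources used here, and these values and shares rest on exon length alone. Nrp2 had 35.9 CPM per kb in N2a against 10.97 for Nrp1, and 24.4 against 5.09 CPM per kb in NIH/3T3. Nrp2 took 76.6%, 82.7% and 90.6% of the neuropilin UMIs per kb across N2a, NIH/3T3 and mESCs, and 72.1%, 79.1% and 88.4% as counted. Sema5a had 44.7 CPM per kb in NIH/3T3, Sema3a 8.57 and Plxna2 6.13, and Plxna4 had 28.3 CPM per kb in N2a. In mESCs, the highest of the 10 genes per kb were Sema3e (1.39), Nrp2 (1.13) and Plxna2 (1.02 CPM per kb). On plain CPM, Plxna2 was the highest of the 10 there.

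Plxna4 (ENSMUSG00000029765, chr6:32121203-32565193), a signaling partner of the neuropilins in sensory and sympathetic neurons, had the highest level of the class A plexins in N2a. It had 7408, 13 and 31 UMIs across N2a, NIH/3T3 and mESCs, or 413, 1.11 and 2.52 CPM. N2a was 164 times mESCs (interval 115 to 242), and mESCs were 2.26 times NIH/3T3 (1.15 to 4.71). The BC1 sequences of N2a ranged from 292 to 540.1 CPM, and no value in another line was over 12.8 CPM. Plxna4 was found in 73.4% of N2a cells and 29.5% after thinning, against 0.638% of NIH/3T3 cells and 1.36% of mESCs, and 558 N2a cells had at least 5 of its UMIs.

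Plxna2 (ENSMUSG00000026640, chr1:194300526-194499177), a class A plexin that also binds class 6 semaphorins, was high where Plxna4 was nearly missing. It had 18, 1235 and 216 UMIs across N2a, NIH/3T3 and mESCs, or 1.00, 106 and 17.5 CPM. NIH/3T3 was 6.02 times mESCs (interval 5.21 to 6.99), and mESCs were 17.5 times N2a (10.8 to 30.1). The BC1 sequences of NIH/3T3, from 67.5 to 165 CPM, did not overlap those of mESCs, which reached 35.1 CPM. Plxna2 was found in 36.5% of NIH/3T3 cells, 8.28% of mESCs and 0.732% of N2a cells.

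**Figure D2:**
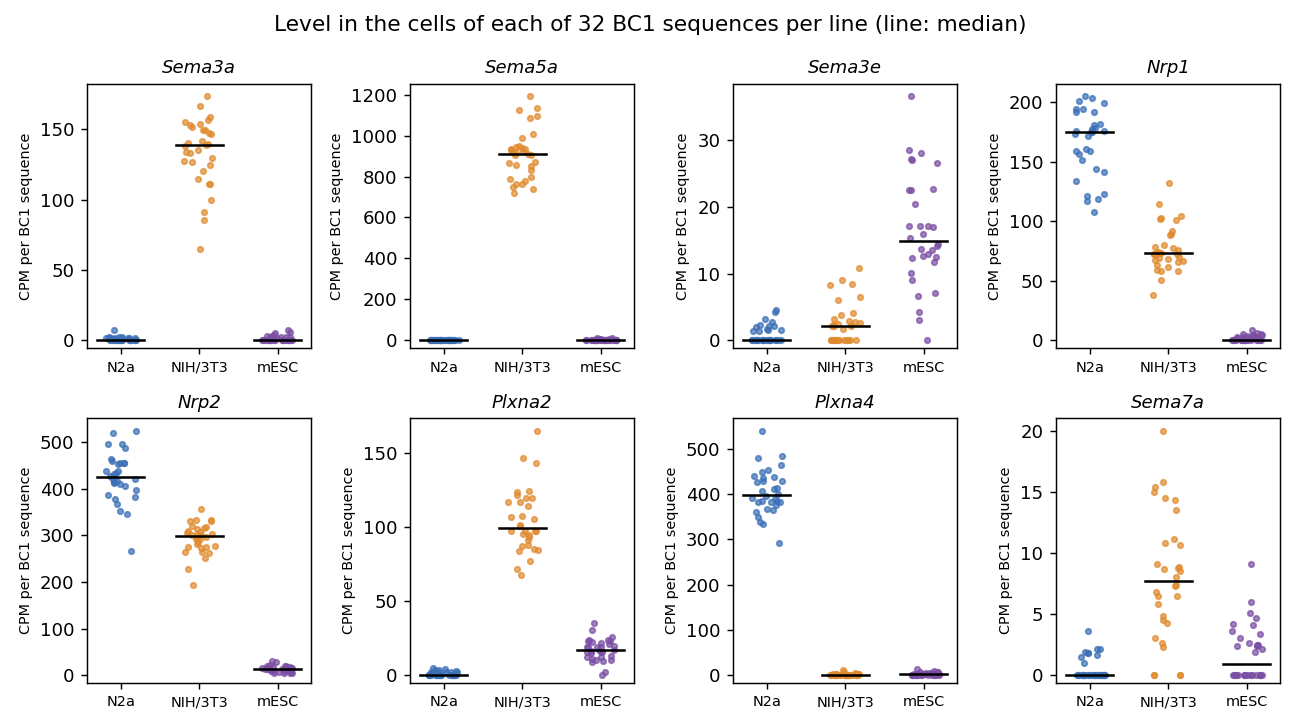
CPM of 8 of the genes in the cells of each of the 32 BC1 sequences per line (points), with the median as a black line; each panel has its own linear axis. The highest line does not overlap the others for Sema5a, Sema3a, Plxna2 and Plxna4. N2a and NIH/3T3 overlap for Nrp1 and Nrp2, and Sema3e and Sema7a overlap between lines at low levels.

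A gene was counted as led by a line where its CPM + 1 was at least 4 times that of both other lines. Genes under 5 CPM in every line were left out. Of the 10 genes, 8 reached 5 CPM, and 5 of these were led, Plxna4 by N2a, Sema3a, Sema5a and Plxna2 by NIH/3T3, and Sema3e by mESCs. Over all 13000 genes that reached 5 CPM, 2533 were led by a line (19.5%), with 6.04% led by N2a, 5.32% by NIH/3T3 and 8.12% by mESCs. Since the 10 genes were chosen on these levels, nothing is read from the difference. Sema3e was just inside the limit at 2.34 on the log2 scale of CPM + 1, where 4 times is 2.00, and Sema7a was just outside at 1.64. The median ratio of the highest to the next line was 2.43 (log2) over the 8 genes and 0.60 over the 13000.

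The other 21 semaphorins and plexins of the mouse are what remained of the family after the 10 genes were picked with their levels known. Their counts are therefore not independent of that choice, and nothing is read from their difference to all genes. Of the 21 genes, 14 reached 5 CPM and 7 were led by a line, 6 by N2a, 0 by NIH/3T3 and 1 by mESCs, beside the 19.5% over all genes. The median log2 ratio of the 14 was 1.92. The ligands of N2a were transmembrane semaphorins, with 184 CPM of Sema6a, 133 CPM of Sema4d, a ligand of B plexins, and 102 CPM of Sema6d. NIH/3T3 had 0.0855, 1.97 and 1.03 CPM of these 3 genes, and mESCs had 27.8, 30.5 and 6.98 CPM. Sema5b, the relative of Sema5a, was led by mESCs with 27.1 CPM, against 0.557 CPM in N2a and 0.513 in NIH/3T3. Sema4b was highest in mESCs (64.2 CPM) but was also found in N2a (22.2) and NIH/3T3 (19.6), and Sema4c had 24.0, 6.41 and 2.92 CPM in N2a, NIH/3T3 and mESCs.

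Among the other plexins, Plxnd1, the receptor of Sema3e, was led by N2a with 68.7 CPM, against 3.33 CPM in NIH/3T3 and 1.38 in mESCs, where Sema3e itself was highest. Plxna3 was led by N2a as well, with 44.3 CPM against 1.45 and 2.92, and so was Plxnc1, the receptor of Sema7a, with 18.4 CPM against 1.03 and 2.52. Plxnc1 was named after its values were seen, as it stayed under 20 CPM. Plxna1 had 37.9, 28.8 and 39.5 CPM in N2a, NIH/3T3 and mESCs, and Plxnb2, a receptor of class 4 semaphorins, had 46.3, 46.2 and 20.7 CPM, so neither was led by a line.

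**Figure D3:**
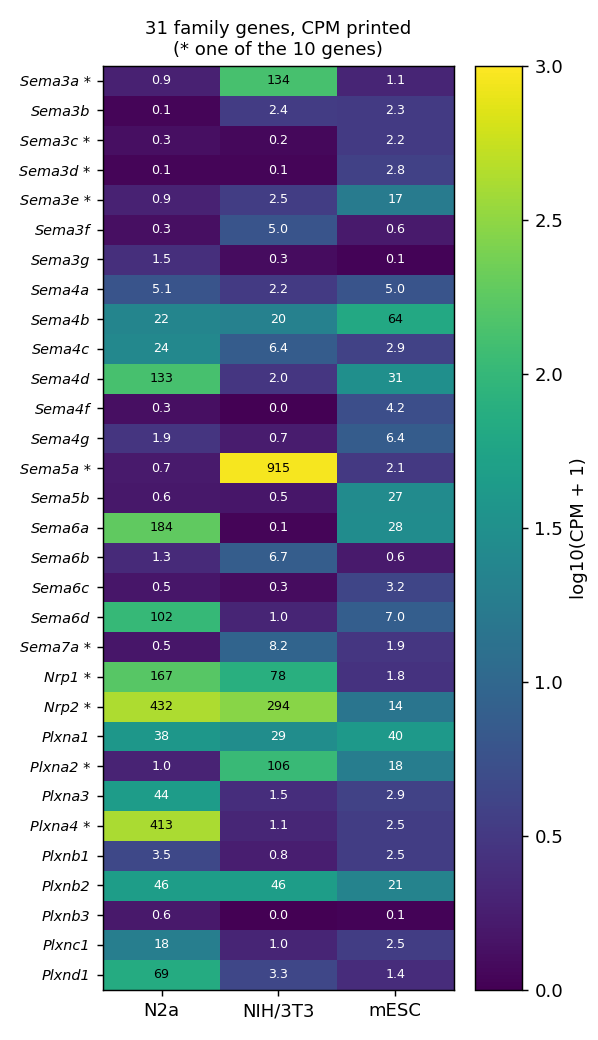
CPM of all 31 semaphorins, neuropilins and plexins in the 3 lines, printed in each cell and colored by log10(CPM + 1), with an asterisk at the 10 genes described here. N2a has Nrp2 (432), Plxna4 (413), Sema6a (184) and Nrp1 (167), NIH/3T3 has Sema5a (915) and Nrp2 (294), and in mESCs the highest is Sema4b (64 CPM).

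Summed over the family, the 20 semaphorins had 480.5, 1107 and 209 CPM across N2a, NIH/3T3 and mESCs. Sema5a and Sema3a took 82.6% and 12.1% of the semaphorin UMIs of NIH/3T3, or 71.0% and 13.6% per kb of exon. The neuropilins summed to 599, 371 and 15.3 CPM, and the plexins to 633, 188 and 89.7 CPM in the same order of lines. Plxna4 took 53.2% of the plexin UMIs per kb of exon in N2a, and 65.2% as counted. Plxna2 took 42.3% per kb in NIH/3T3 and 13.95% in mESCs, or 56.1% and 19.5% as counted. In mESCs, Plxna1 and Plxnb2 took 34.7% each per kb, but 44.1% and 23.1% as counted.

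A list of 42 partner genes was set beside the family, and 38 of them reached 5 CPM. Of these, 8 were led by a line, 5 by N2a, 1 by NIH/3T3 and 2 by mESCs, with a median log2 ratio of 0.74. This was 21.1% of the 38, close to the 19.5% over all genes. Among 11 co-receptors and other receptors, L1cam, an adhesion partner of Nrp1, was led by N2a (105 CPM, against 0.513 and 4.54), and Met, a receptor tyrosine kinase that associates with plexins, was led by NIH/3T3 (259.5 CPM, against 0.278 in N2a and 3.17 in mESCs). Itgb1, the integrin subunit used by Sema7a, had 620.5, 642 and 201 CPM, and Chl1 had 16.6, 21.3 and 58.8 CPM. Of the other neuropilin ligands, Vegfc was led by mESCs with 140.1 CPM, against 0.167 in N2a and 0.171 in NIH/3T3, whereas Nrp2, the neuropilin it binds, was lowest in mESCs. Vegfa had 37.1, 22.1 and 47.6 CPM and Vegfb 24.6, 31.4 and 20.5 CPM. Pgf, with 18.0 CPM in N2a, was also led by N2a and was named after its values were seen.

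Of the 24 intracellular partners, 23 reached 5 CPM and 3 were led by a line, each by N2a, which was 13.0% beside the 19.5% over all genes. They were Crmp1 (151 CPM, against 0.342 and 1.38), which acts in Sema3a signaling, and the exchange factors Farp1 (215, against 19.6 and 34.9) and Arhgef11 (289, against 42.9 and 42.4). Dpysl3 and Dpysl2, relatives of Crmp1, had 437, 124 and 7.47 CPM and 125, 58.0 and 6.41 CPM in N2a, NIH/3T3 and mESCs. The exchange factor Farp2 had 109, 71.0 and 14.9 CPM, and Mical2, an actin-oxidizing enzyme, had 47.8, 78.0 and 1.14 CPM. The remaining 11 partners with at least 20 CPM, Arhgef12, Cfl1, Fyn, Gipc1, Gsk3b, Limk1, Mical3, Rac1, Rnd1, Rock1 and Rock2, differed by at most 1.89 times between the highest and the next line. The protease Pcsk6 had 57.7, 0.256 and 159 CPM, and Furin, which cleaves class 3 semaphorins, had 32.9, 16.1 and 10.9 CPM. Pcsk5, led by mESCs, stayed under 20 CPM.

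Shares of cells that held several of these genes describe how often ligands and receptors were found together. They were not compared with the shares expected from each gene alone, so they may only restate the separate levels. At least 1 neuropilin and 1 class A plexin were found in 71.0% of N2a cells (interval 69.1% to 72.8%), 37.5% of NIH/3T3 cells and 2.57% of mESCs. After thinning to 1000 UMIs these were 14.7%, 3.58% and 0.0468%, in the same order. Nrp2 and Plxna4 were found together in 61.3% of N2a cells (9.81% after thinning), and Nrp2 and Plxna2 in 29.4% of NIH/3T3 cells (2.50%). A class 3 semaphorin was found with a neuropilin and a class A plexin in 2.67% of N2a cells, 21.4% of NIH/3T3 cells and 0.328% of mESCs. After thinning, such a set was found in 0.491% of NIH/3T3 cells and in no cell of N2a or mESCs. In NIH/3T3, 38.4% of the cells held both Sema5a and Sema3a. Such shares move with the UMIs per cell, and after thinning the last value was 6.63%.

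**Figure D4:**
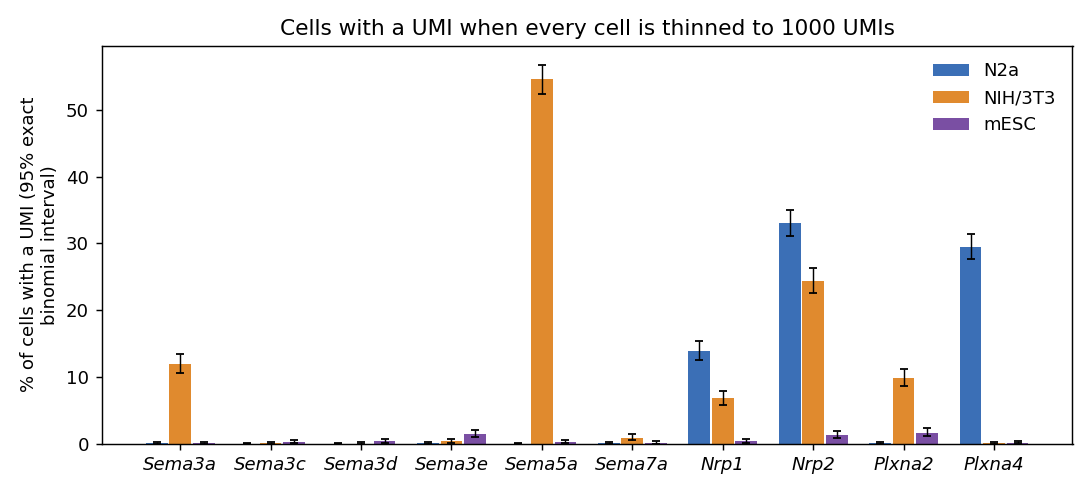
Share of cells with at least 1 UMI of each of the 10 genes after every cell was thinned to 1000 UMIs (bars, from 0), with 95% exact binomial intervals, in N2a (blue), NIH/3T3 (orange) and mESCs (purple). Sema5a is found in 54.5% of NIH/3T3 cells, and the mESC bars reach at most 1.64% (Plxna2).

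Within NIH/3T3, levels were also compared between groups of cells. Clustering without the 31 family genes gave 4 clusters, of which 1 with 615 cells (30.2%) was led by Nlgn1, Hspa12a and Gm45589. It had cells of all 32 BC1 sequences (18.4% to 39.6% of their cells), a median of 5527 UMIs per cell, and a summed level of 12.4 CPM for 7 neighboring genes of chromosome 14 that had 238 to 268 CPM in the other clusters. All of these are cells of 1 culture, and the values describe it without a test.

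Nrp1 was low in the Nlgn1-led cluster, with 22.3 CPM against 107 CPM in the other NIH/3T3 cells, a ratio of 0.209 (exact interval 0.167 to 0.261). It was lower in 32 of 32 BC1 sequences, and the 3 other clusters had 117, 111 and 77.7 CPM. Sema7a went the other way, with 17.6 against 3.26 CPM (ratio 5.41, interval 3.38 to 8.90), higher in 24 of 32 BC1 sequences and lower in 4. Of 10629 genes with at least 5 CPM in either set of cells, 3.36% were at least 4 times higher in the cluster on CPM + 1 and 1.21% lower, and of 6 of the 10 genes so tested, Sema7a was higher and Nrp1 lower.

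Plxna2 was 1.94 times higher in the same cluster (155 against 79.8 CPM, interval 1.73 to 2.17) and higher in 30 of 32 BC1 sequences. Sema3a had 164 against 119 CPM (ratio 1.38, interval 1.25 to 1.53) and was higher in 24 of 32. Nrp2 had 333 against 273 CPM (1.22, 1.14 to 1.31), higher in 30 of 32, and Sema5a 1002 against 869 CPM (1.15, 1.11 to 1.20), higher in 25 of 32. Over the 4 clusters, Sema5a ranged from 729 to 1002 CPM. Among genes outside the 10, Plxnd1 had 9.43 against 0.130 CPM, on 38 and 1 UMIs, and Hgf 44.2 against 1.04 CPM. These 2 genes were named after their values were seen.

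**Figure D5:**
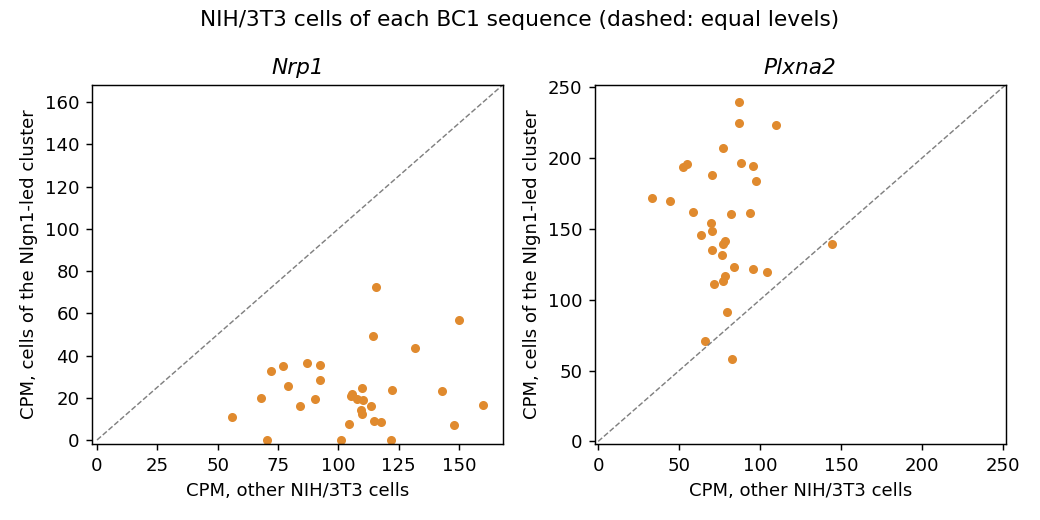
CPM of Nrp1 (left) and Plxna2 (right) in NIH/3T3 cells of each BC1 sequence, with the other NIH/3T3 cells on the x axis, the Nlgn1-led cluster on the y axis, and a dashed line of equal levels. For Nrp1 all 32 points lie below the line, and for Plxna2 30 of 32 lie above it.

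Within N2a, the same clustering gave 3 clusters of 956, 818 and 549 cells, with medians of 5176, 7641 and 5470 UMIs per cell. Nrp1 had 232 CPM in the largest and 124 and 138 CPM in the others. Nrp2 had 371, 423 and 560 CPM in the same order, so the 2 neuropilins differed in the cluster with the highest level. Plxna4 varied less, with 411, 395 and 453 CPM. The third cluster, led by Abca1 and Nr4a2, had 222 CPM of the mitosis gene Top2a against 1025 and 1081 CPM in the others. Whether cell cycle or depth takes part in these differences was not tested.

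The genes with the most similar levels over the 3 lines were searched among 6372 genes with at least 50 CPM in a line, by the Euclidean distance of log2(CPM + 1). Closest to Sema5a, the highest of the 10 genes in NIH/3T3, were Il1rl1, Col4a5 and Prrx1, with 596, 511 and 622 CPM in NIH/3T3 (distances 0.79, 0.89 and 0.97). Closest to Nrp2, the highest in N2a, were Cdh2, Rhox5 and App (0.56, 0.64 and 0.71), and closest to Plxna2 were Pcdh19, Phldb2 and Myo1d (0.55, 0.60 and 0.68). Plxna2 had the highest CPM of the 10 genes in mESCs, but its interval (15.3 to 20.03) overlapped that of Sema3e (14.4 to 19.1), and per kb of exon it was under Sema3e and Nrp2. With 3 lines, these distances describe the order and size of 3 values only.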

How the data were processed

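The authors converted the reads of 1 CapSeq library to FASTQ files, split them by BC1, trimmed the template switching oligo, and aligned and counted them with STARsolo on GRCm39. The deposited values are raw UMI counts in 4 matrices that hold all barcodes, of which the 3 matrices per line were used and the pooled one served as an alternative. The STARsolo feature mode, the strand setting and any doublet step were not given in the sources used here, and no doublets were called.

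From the deposited counts, cells were kept at 1000 or more UMIs and a mitochondrial share of 20% or less, and their UMIs summed per line to CPM. With 1 sample per line there was no test. Intervals at the 95% level are exact Poisson, exact binomial and exact conditional intervals of a ratio, for counting error alone. Where 0 UMIs were found, 3 counts were taken as the limit. Fold calls used a pseudocount of 1 CPM and a filter of 5 CPM. Thinning drew 1000 UMIs per cell with a fixed seed. Clustering within a line scaled cells to 10000 UMIs and used 150 variable genes, 50 components, 100 neighbors and Leiden at a resolution of 0.5, after the family, mitochondrial and ribosomal genes were left out. Genes named were the 10 genes, other family genes and partners with at least 20 CPM in a line, and the 3 nearest genes per line. The genes and lists were chosen with earlier results of these data known. Positions, exon lengths and upstream sequence came from GENCODE M39 and the GRCm39 genome, where 32953 of 33565 genes were matched. Scanpy 1.11.5, igraph 0.11.9, pandas 2.3.3, scipy 1.17.1 and numpy 2.4.6 were run in Python 3.11.15, and the scripts were tested on simulated data. The levels of 2 genes of the N2a marker list are not reported here. Other cell calls, scalings, folds and filters were tried.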

Additional observations from a re-analysis of the deposited data

Results flagged for a closer look

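A few of the 10 genes gave a signal in barcodes that were not used as cells. In barcodes with at most 99 UMIs, summed per line, some genes under 5 CPM in the cells of a line had a higher CPM than in those cells. The cases given are those whose interval in the low barcodes lay wholly above the interval in the cells. The other cases under 5 CPM did not meet this limit and are not listed. Sema5a had 9.58 CPM in such barcodes of mESCs (10 UMIs, exact Poisson interval 4.59 to 17.6), against 2.11 CPM in the cells, and 3.79 CPM in those of N2a (7 UMIs, 1.52 to 7.81), against 0.668 CPM. Plxna4 had 6.62 CPM in those of NIH/3T3 (9 UMIs, 3.03 to 12.6), against 1.11 CPM in the cells, and 8.62 CPM in those of mESCs (9 UMIs, 3.94 to 16.4), against 2.52 CPM. Sema3a had 6.71 CPM in those of mESCs (7 UMIs, 2.696 to 13.8), against 1.06 CPM. In each case the level in the low barcodes was far under that of the line with the gene.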

How the results depend on the processing

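All 10 genes kept the same highest line under the 9 alternatives that recomputed the levels, and of 270 recomputed levels 31 lay outside the counting interval of the main level, 12 of them after thinning to 1000 UMIs per cell. Leaving mitochondrial and ribosomal genes out of the total raised the median of all genes by 0.14 to 0.18 (log2) in the 3 lines. With a fold of 2 for a call, 4526 of the genes were led by a line, 11 of the other family genes and 14 of the partners, and with a fold of 8 these were 1445, 4 and 4. With a fold of 8, 3 of the 10 genes were led, without Sema3e and Plxna2. After thinning, 4 of the 5 led genes kept their call, Sema3e lost it and Sema7a gained it, and Sema7a also gained it with a pseudocount of 0.1 CPM. Among the other family genes, thinning ended the call of Sema4d and added Sema3f and Sema4c. The log2 ratio of Sema5a was 7.66 over all barcodes and 8.69 with a pseudocount of 0.1 CPM, against 8.20 (7.78 to 8.62). Clustering on 1000 variable genes or without chromosome 14, chosen after seeing the data, gave Nrp1 ratios of 0.209 and 0.203 for the Nlgn1-led cluster, Plxna2 ratios of 1.96 and 1.97, and Sema7a ratios of 5.34 and 5.32. No paired analysis was possible because each line was 1 sample without replicates. Depth limits the low genes, since a level near 1 CPM rests on few UMIs, such as 18 for Plxna2 in N2a.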
